A study of Mus musculus with 4 samples.

Results

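The genes of the nuclear receptors that do not bind classical steroid hormones were followed through chromatin loop lists of the mouse uterus. The group holds 33 of the 49 nuclear receptor genes of the mouse, chosen by name. A loop was counted at a gene when either of its anchors, the paired genome bins that the loop joins, overlapped the gene body extended by 10 kb on each side, with gene positions from the RefSeq annotation of mm10 (assembly GRCm38.p6, 21631 protein-coding genes). All 33 genes were found in that annotation.

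The loops come from Hi-C, which ligates and sequences pieces of DNA found near each other in the nucleus. Every library was made from whole uterus of C57BL/6J females over 10 weeks old whose ovaries had been removed 10 to 14 days earlier, and the tissue was frozen 1 h after an injection. The wild-type vehicle group (2 libraries, replicates 2 and 3) and the ERα knockout group (genotype Ex3aERKO, 1 library) had 100 ul of saline injected into the abdominal cavity. The wild-type progesterone group (1 library, replicate 2) had 1 mg of the hormone under the skin in 100 ul of sesame oil. Progesterone therefore differs from vehicle in carrier and route as well, and the knockout is of the whole animal, not of 1 cell type. No source used here says whether a library is 1 animal or a pool. Loop positions hold no expression, so neither the tissue label nor the activity of any receptor could be checked against marker genes.

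Nuclear receptors are transcription factors, most of them switched by small fat-soluble ligands. Many of the receptors described here bind DNA as heterodimers with a retinoid X receptor (RXR), on repeats of the hexamer AGGTCA, while others, such as the REV-ERB and ROR receptors, bind a single hexamer with an adenine- and thymine-rich flank. In the uterus Ppard and Nr5a2 are known for roles in implantation and decidualisation, and the REV-ERB and ROR genes are part of the circadian clock.

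The lists held 9385 to 21829 loops, with anchors of 5, 10 or 25 kb. Loops at the receptor genes numbered 57 and 35 in the lists of vehicle replicates 2 and 3, 49 in the progesterone list and 79 in that of the knockout. As a share of each list these were 0.348% (exact 95% interval 0.264 to 0.450), 0.373% (0.260 to 0.518), 0.417% (0.309 to 0.551) and 0.362% (0.287 to 0.451). The 4 intervals overlapped, and the longest list had the most receptor loops and the shortest the fewest. The lists give positions only: depth and loop strength are unknown, and a loop that is not listed was not called. Progesterone and the knockout have 1 library each, so no test between conditions was made, and all intervals cover counting error only.

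Promoters were examined first because a loop that ends on a promoter has a defined place on the gene. A promoter was listed in RefSeq for 30 of the 33 genes, as the 250 bases before and 50 bases after a transcription start; Thra, Nr5a1 and Hnf4g had none listed. A listed promoter overlapped a loop anchor for 10 of the 30 genes in vehicle replicate 2 (28.6% of all protein-coding genes with a listed promoter did so). The count was 7 for vehicle replicate 3 (17.9%), 11 for progesterone (22.3%) and 14 for the knockout (39.1%). The receptor shares were 33.3% (17.3 to 52.8), 23.3% (9.93 to 42.3), 36.7% (19.9 to 56.1) and 46.7% (28.3 to 65.7). In every library the interval held the share of all genes. For 6 receptors the promoter lay in an anchor in each of the 4 lists (20.0%, 7.71 to 38.6), against 10.6% of all genes: Rxra, Thrb, Rorb, Nr1h3, Esrra and Nr6a1.

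These 6 promoters are shown because they are the receptor promoters that were joined to another place in every library. They are RefSeq sequences of GRCm38.p6, 5′ to 3′ on the gene's own strand. Capitals mark matches on either strand to the hexamer AGGTCA, of which Thrb holds 1, or to a loose core of the sequence bound by CTCF, the factor at many loop anchors, of which Thrb and Esrra hold 1 each. The positions are chr2:27676951-27677250 on the + strand for Rxra, chr14:17660710-17661009 on the + strand for Thrb, chr19:19111147-19111446 on the - strand for Rorb, chr2:91194986-91195285 on the - strand for Nr1h3, chr19:6921759-6922058 on the - strand for Esrra and chr2:38926412-38926711 on the - strand for Nr6a1.
Rxra: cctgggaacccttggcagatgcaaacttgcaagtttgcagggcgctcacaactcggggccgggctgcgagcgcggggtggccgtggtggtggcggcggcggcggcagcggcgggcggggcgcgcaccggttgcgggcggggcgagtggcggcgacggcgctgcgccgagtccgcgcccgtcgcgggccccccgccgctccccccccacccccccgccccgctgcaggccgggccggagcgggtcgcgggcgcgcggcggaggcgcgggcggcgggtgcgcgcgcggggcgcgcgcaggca
Thrb: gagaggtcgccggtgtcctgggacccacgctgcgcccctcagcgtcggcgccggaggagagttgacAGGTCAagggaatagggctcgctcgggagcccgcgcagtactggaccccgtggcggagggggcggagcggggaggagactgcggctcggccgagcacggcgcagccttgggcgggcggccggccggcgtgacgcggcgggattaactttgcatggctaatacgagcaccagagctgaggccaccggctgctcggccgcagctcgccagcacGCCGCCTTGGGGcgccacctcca
Rorb: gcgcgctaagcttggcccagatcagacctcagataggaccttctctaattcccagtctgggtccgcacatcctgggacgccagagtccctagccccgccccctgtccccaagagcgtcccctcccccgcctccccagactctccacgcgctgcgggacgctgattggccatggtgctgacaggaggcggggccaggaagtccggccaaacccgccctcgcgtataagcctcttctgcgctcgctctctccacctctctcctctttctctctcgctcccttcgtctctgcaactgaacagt
Nr1h3: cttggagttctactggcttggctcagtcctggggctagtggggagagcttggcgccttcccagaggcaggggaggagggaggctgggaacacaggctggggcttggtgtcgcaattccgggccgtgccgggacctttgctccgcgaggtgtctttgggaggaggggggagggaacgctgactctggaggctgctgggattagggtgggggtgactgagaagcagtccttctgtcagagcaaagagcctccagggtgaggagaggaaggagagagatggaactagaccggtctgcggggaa
Esrra: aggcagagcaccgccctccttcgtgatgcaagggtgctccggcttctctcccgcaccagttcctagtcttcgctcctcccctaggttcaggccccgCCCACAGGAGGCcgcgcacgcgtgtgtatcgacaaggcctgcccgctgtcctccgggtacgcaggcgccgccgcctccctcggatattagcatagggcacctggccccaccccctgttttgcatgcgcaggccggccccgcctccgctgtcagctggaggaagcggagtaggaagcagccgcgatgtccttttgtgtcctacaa
Nr6a1: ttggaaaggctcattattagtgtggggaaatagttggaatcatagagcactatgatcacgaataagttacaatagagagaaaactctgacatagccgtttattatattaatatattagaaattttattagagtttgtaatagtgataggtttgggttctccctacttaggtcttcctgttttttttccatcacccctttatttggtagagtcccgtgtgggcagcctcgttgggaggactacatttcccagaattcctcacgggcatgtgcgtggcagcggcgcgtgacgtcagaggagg
The promoter of Nr1h3 reached only 15 bases into the 5 kb anchor of the loop found in every list. The other 5 lay whole inside an anchor in each list. Their share of G and C ranged from 42.3% in Nr6a1 to 83.0% in Rxra, with 66.0% in Esrra and 72.7% in Thrb, against a median of 52.7% over all 32851 listed promoters. The count of CG pairs was 55 in Rxra, 37 in Thrb, 25 in Esrra, 20 in Rorb and 10 in both Nr1h3 and Nr6a1, against a median of 7. Thus 5 of the 6 were richer in G and C than the median promoter, and Nr6a1 was not.

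The hexamer AGGTCA was in 10 of 45 listed promoters of the receptor genes (22.2%) and in 16.3% of all promoters of the same length. In the printed set only Thrb held it. The genes with it were Nr0b1, Nr1d2, Nr1h4, Nr5a2, Nr6a1, Pparg, Rxra, Rxrg and Thrb; for Nr6a1 and Rxra it was in a second listed promoter that is not shown. The longer element TAGGTCA, which contains the hexamer and is bound by REV-ERB and ROR proteins, was in 0 of the 45 and in 2.61% of all promoters. The palindrome of the estrogen receptors, the estrogen response element, was in 0 of the 45 and in 0.0700% of all. Both strands were searched for each. The loose CTCF core was in 6 of the 45 (13.3%, against 8.61%), at Esrra, Nr1d1, Nr1h2, Nr2c1, Ppara and Thrb. These matches describe letters in the windows searched and show no binding.

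Most of the 33 genes were at a loop somewhere, and nearly all of those were at one in every library. At least 1 loop was at 21 genes in vehicle replicate 2 (63.6%, 45.1 to 79.6), where 57.5% of all protein-coding genes had one. In the list of vehicle replicate 3 the count was 19 (57.6%, 39.2 to 74.5, against 45.3%), in the progesterone list 20 (60.6%, 42.1 to 77.1, against 50.0%) and in the knockout list 23 (69.7%, 51.3 to 84.4, against 65.1%). A loop in every list was present at 19 of the 33 (57.6%, 39.2 to 74.5, against 38.8% of all genes), and no loop in any list at 10 (30.3%, 15.6 to 48.7, against 29.7%). Weighted to the length classes of the receptors, described next, these backgrounds were 48.5% and 21.1%, both inside the intervals. Receptor genes are long, and a long gene meets more anchors: 15 of the 33 fall in the longest of 5 equal length classes (57.8 kb and above). When all genes were weighted to the length classes of the receptors, the background shares were 67.1%, 54.7%, 59.8% and 74.1%, within 5 percentage points of the receptor shares on either side. Weighting by the number of genes within 100 kb gave 59.6%, 48.0%, 52.6% and 66.6%. In each single library the share of the group at loops was thus near that of genes of like length.

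**Figure D1:**
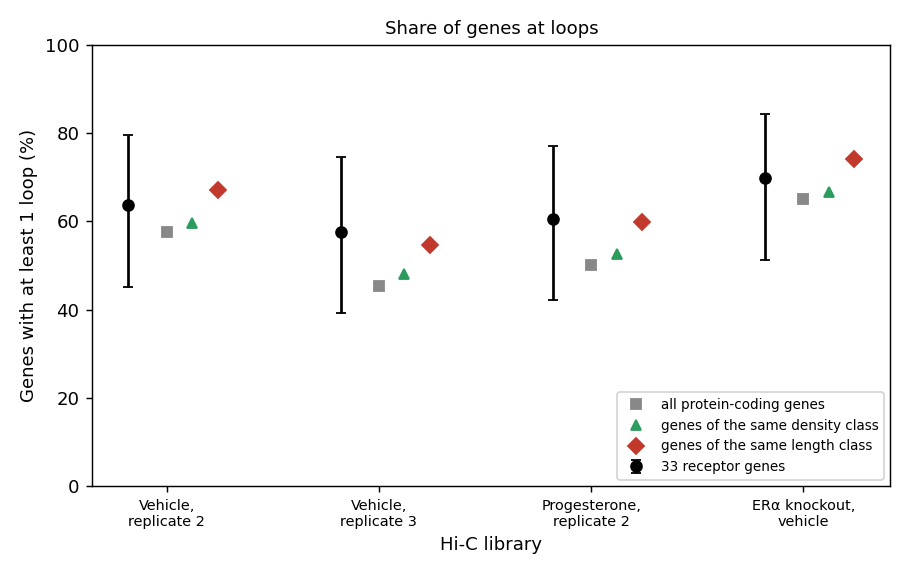
Share of genes with at least 1 loop (y axis, percent) in each of the 4 Hi-C libraries (x axis); circles are the 33 receptor genes with exact 95% intervals, squares all protein-coding genes, triangles and diamonds all genes weighted to the density or length classes of the receptors. The receptor values of 57.6% to 69.7% lie close to the diamonds, and each interval holds all 3 backgrounds.

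The median number of loops per receptor gene was 1, 1, 1 and 2 in the 4 lists, taken from here on in the order vehicle replicate 2, vehicle replicate 3, progesterone, knockout. Over all protein-coding genes it was 1, 0, 1 and 1. Loops were unevenly spread: Thrb, Rora and Rxra held 81 of the 227 pairs of a gene and a loop (35.7%). Linked across lists, the entries came to 100 distinct loops, of which 29 were found in 4 lists, 12 in 3, 13 in 2 and 46 in 1. All loops of the lists, linked alike, came to 27358, of which 24.4% were in 4 lists, 12.6% in 3, 17.8% in 2 and 45.2% in 1. Of the 46, the knockout, the longest list, held 30, progesterone 8, vehicle replicate 2 held 7 and vehicle replicate 3 held 1; of all linked loops these lists alone held 29.5%, 3.66%, 10.1% and 1.97%. Loops in 4 lists had a median length of 135 kb and those in a single list 200 kb.

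**Figure D2:**
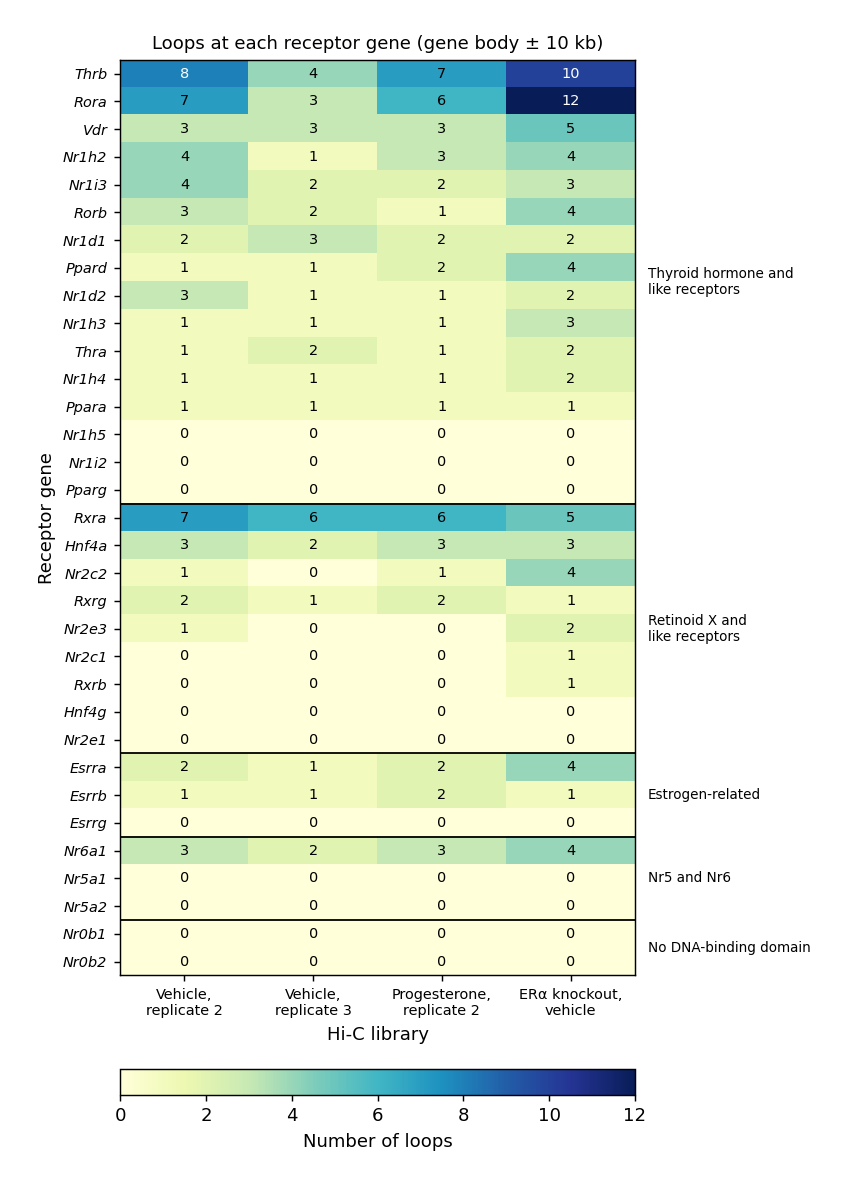
Number of loops (colour and printed value, 0 to 12) at each of the 33 receptor genes (rows, grouped by subfamily) in the 4 Hi-C libraries (columns). Thrb, Rora and Rxra have the highest sums over the 4 libraries, with 3 to 12 loops in each, Vdr has 3 to 5 in each, and 10 genes have 0 throughout.

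By subfamily, the receptors related to the thyroid hormone receptor were at loops in the same genes throughout. Of these 16 genes, 13 were at a loop in each list, the same 13 in all 4. They had 39, 25, 31 and 54 pairs of gene and loop, a median of 1.5, 1, 1 and 2.5 per gene. Of the 9 receptors related to RXR, 5, 3, 4 and 7 were at a loop, and only Hnf4a, Rxra and Rxrg in every list. Of the 3 estrogen-related receptors, orphan relatives of ERα that bind no estrogen, Esrra and Esrrb were at loops in every list and Esrrg in none. Of the 3 Nr5 and Nr6 receptors, Nr6a1 alone was at loops, and neither of the 2 atypical receptors that lack a DNA-binding domain, Nr0b1 and Nr0b2, was. Of all protein-coding genes 38.8% were at a loop in every list, and 48.5% when weighted to the length classes of the 33 receptors. In the single lists 57.5%, 45.3%, 50.0% and 65.1% of all genes were at one. No background was weighted to the lengths of a single subfamily. The subfamilies are small, and their difference was not tested.

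Among the common heterodimer partners, Rxra, Rxrb and Rxrg, the first had the loops. Rxra (chromosome 2, 27676445 to 27763319) had 7, 6, 6 and 5 loops, Rxrg (chromosome 1, 167598362 to 167639623) 2, 1, 2 and 1, and Rxrb (chromosome 17, 34031812 to 34038403) 0, 0, 0 and 1. The lowest count of Rxra was in the longest list, that of the knockout. A 215 kb loop enclosed Rxra in the wild-type lists, from 27550001 to 27555000 upstream to 27765001 to 27770000 just past the gene end. In the knockout it was matched by a 210 kb loop whose right anchor, 27760001 to 27765000, overlapped the gene end. A 70 kb loop in vehicle replicate 2 joined the promoter bin, 27675001 to 27680000, with 27745001 to 27750000 near the gene end, and was matched in the other 3. From 27770001 to 27775000, within 10 kb of the gene end, a 115 kb loop and a 200 kb loop ran to 27885001 to 27890000 and 27970001 to 27975000, both inside Col5a1, a fibrillar collagen gene, again in all 4 lists. A 125 kb loop from 27550001 to the promoter bin was in the vehicle and knockout lists and not in the progesterone list. The progesterone list instead held a 90 kb loop from 27570001 to 27660001 and a 50 kb loop from 27700001 to 27750001, neither matched in a vehicle list, and all 3 differences were matched when 25 kb was allowed.

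For Rxrg the constant loop was 230 kb long and joined 167410001 to 167415000 with 167640001 to 167645000, less than 1 kb past the gene. The loop of Rxrb, in the knockout alone, was 90 kb long and joined its promoter bin, 34030001 to 34035000, with Brd2 and H2-DMa.

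Both thyroid hormone receptor genes lie beside a REV-ERB gene, and both pairs were at loops. Thrb (chromosome 14, 17659225 to 18040097) had 8, 4, 7 and 10 loops, more than any other receptor gene in vehicle replicate 2 and after progesterone. Its receptor and that of Thra bind thyroid hormone. A 250 kb loop from 17405001 to 17410000, in a stretch with no protein-coding gene, to 17655001 to 17660000 at the gene start was matched in all 4 lists. From the same outer anchor a 560 kb loop reached 17965001 to 17970000 inside the gene, and a 270 kb loop from the gene start ended at 17925001 to 17930000 inside the gene, each in all 4 lists. The anchor at the gene start, or one within 10 kb of it, took part in 5 of 8, 3 of 4, 5 of 7 and 5 of 10 Thrb loops. Toward Nr1d2, vehicle replicate 3, progesterone and the knockout had a loop of 520 to 525 kb from the Thrb start to about 18180001, and vehicle replicate 2 had one of 500 kb to 18160001 to 18170000. This last loop matched the vehicle replicate 3 loop but no loop of progesterone or the knockout, so it was counted as a vehicle loop that progesterone and the knockout lacked, although the matching loop of vehicle replicate 3 was found in both.

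Nr1d2 (chromosome 14, 18204056 to 18239106) encodes REV-ERBβ, a heme-binding repressor of the clock, and had 3, 1, 1 and 2 loops. None was in all 4 lists by its vehicle replicate 2 coordinates. Its promoter bin, 18235001 to 18240000, was joined by a 35 kb loop with Rpl15 and Nkiras1 in vehicle replicate 2 and the knockout. A loop of 1750 kb from Top2b and Rarb, the retinoic acid receptor β gene, to a bin next to Nr1d2 was in the progesterone list alone, at the coarsest resolution of 25 kb. Vehicle replicate 2 alone had a loop of like length, 1990 kb with 10 kb anchors. It joined Oxsm and Ngly1, at 16240001 to 16250000, with the Nr1d2 promoter at 18230001 to 18240000.

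Thra (chromosome 11, 98740776 to 98769006) overlaps the end of Nr1d1 (98767932 to 98775377), the REV-ERBα gene, so the loops of this pair are in part the same. Thra had 1, 2, 1 and 2 loops and Nr1d1 2, 3, 2 and 2. An 85 kb loop from Csf3 and Med24, a Mediator subunit gene, at 98700001 to 98705000 to 98785001 to 98790000, less than 10 kb past Nr1d1, was matched in all 4 lists. A 45 kb loop from the Thra start at 98740001 to 98745000 to the same far anchor, matched by 1 of 40 kb in vehicle replicate 3, was in both vehicle lists and the knockout and not after progesterone. A 50 kb loop from Med24 to the Nr1d1 promoter, 98720001 to 98730000 and 98770001 to 98780000, was in the progesterone list only. Both differences had a match when 25 kb was allowed, which is a wide limit for loops this short.

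The ROR receptors, activators that compete with REV-ERB proteins for the same elements, were at long loops. Rora (chromosome 9, 68653404 to 69388246) is the longest gene of the group at 735 kb and had 7, 3, 6 and 12 loops. A 1350 kb loop from 68010001 to 68020000, far upstream and outside any protein-coding gene, to 69360001 to 69370000 near the gene end was in all 4 lists, as was a 330 kb loop within the gene from 68960001 to 69290001. The anchor at 69290001 to 69300000, or one within 10 kb of it, took part in 5 of the 7 loops in vehicle replicate 2 and 6 of 12 in the knockout. Both anchors lay on Rora for 3, 2, 2 and 7 of its loops. The knockout held 7 Rora loops in neither vehicle list, more than at any other receptor gene. Of these, 2 joined the promoter bin at 68650001 to 68660000 with upstream anchors 520 and 640 kb away. The outer anchor of the 640 kb loop, 68010001 to 68020000, also had a 680 kb loop in vehicle replicate 2. That loop ended inside Rora at 68690001 to 68700000 and was matched after progesterone. A 480 kb loop within Rora, 68810001 to 69290001, was in the vehicle and knockout lists and not after progesterone.

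Rorb (chromosome 19, 18930609 to 19111196), best known from retina and brain, had 3, 2, 1 and 4 loops. A 240 kb loop from Trpm6, a magnesium channel gene, at 18870001 to 18880000 to the Rorb promoter bin at 19110001 to 19120000 was matched in all 4 lists. A 1370 kb loop from 18970001 to 20340001 was at identical bins in both vehicle lists and in neither other list, also when 25 kb was allowed. It was the only receptor loop with that pattern at this wider limit.

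**Figure D3:**
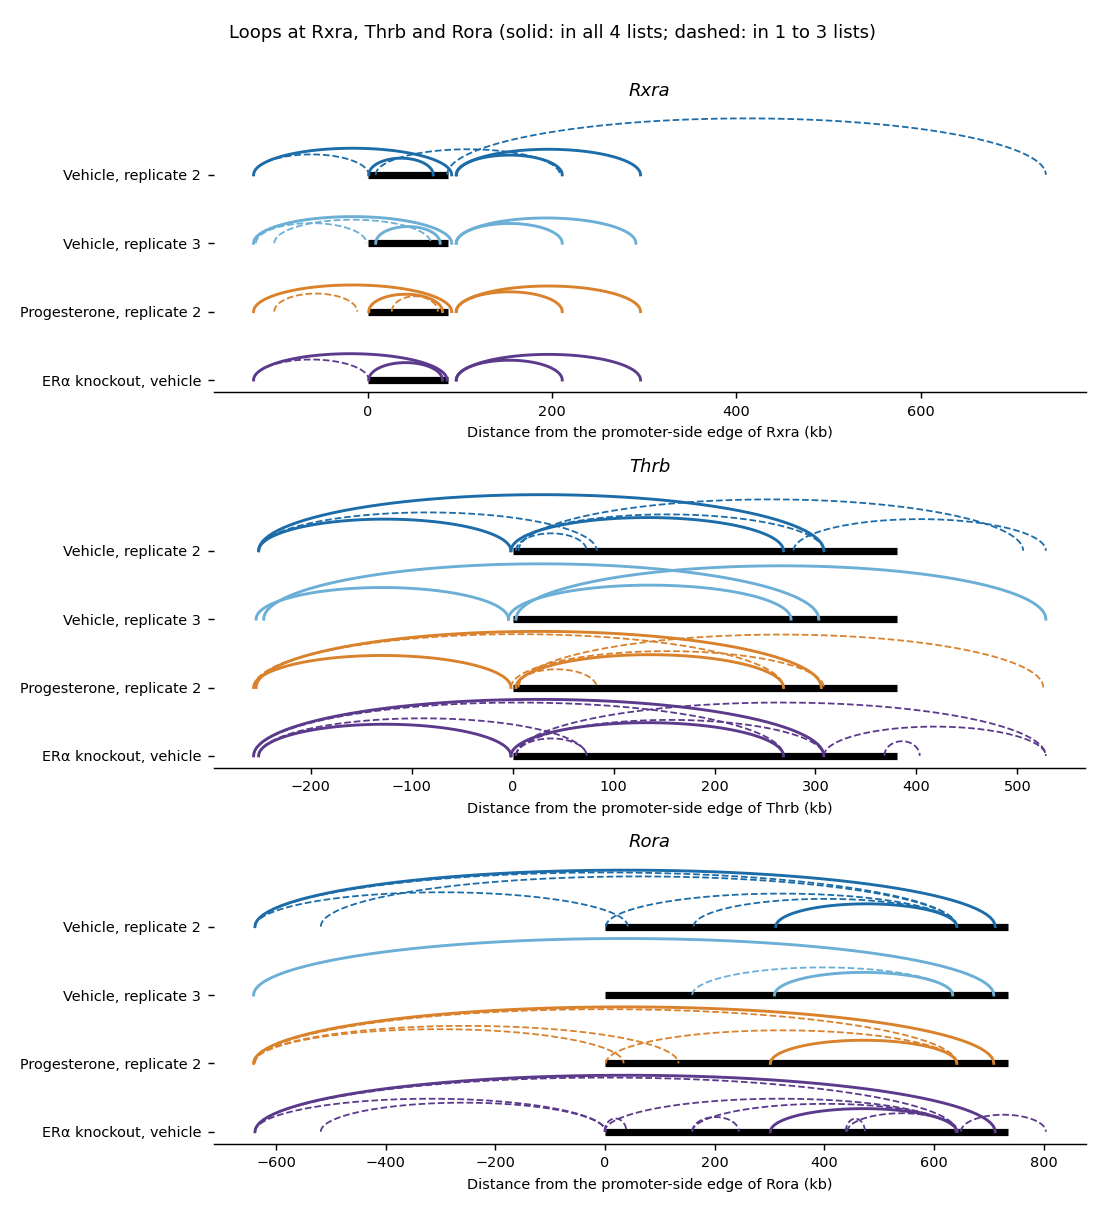
Loops at Rxra, Thrb and Rora as arcs over the gene (black bar) in the 4 Hi-C libraries (rows); the x axis is the distance in kb from the gene edge nearest the first listed promoter, and solid arcs are loops found in all 4 lists. Rxra keeps the same 4 solid arcs in every row, Thrb and Rora reach 250 kb and 640 kb upstream, and the knockout row of Rora holds 12 arcs.

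Of the receptors for lipids and sterols, the LXR genes and Ppard had loops in all libraries and Pparg in none. Nr1h2 (chromosome 7, 44549616 to 44553968), the gene of the oxysterol receptor LXRβ, had 4, 1, 3 and 4 loops. Its promoter bin was joined by a 55 kb loop with Emc10 and Fam71e1 at 44495001 to 44500000 in vehicle replicate 2 and after progesterone, and loops within the matching limit were in the other lists. Nr1h3 (chromosome 2, 91184061 to 91202829), which encodes LXRα, had 1, 1, 1 and 3. The 75 kb loop of Nr1h3 was at the same bins in every list, 91115001 to 91120000, where Spi1 and Mybpc3 lie, and 91190001 to 91195000 inside Nr1h3. Spi1 encodes PU.1, a transcription factor of macrophages and B cells. Nr1h4 (chromosome 10, 89454234 to 89533645), the bile acid receptor gene, had 1, 1, 1 and 2, with a 170 kb loop to 89630001 to 89635000, over no protein-coding gene, matched in all 4.

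Ppard (chromosome 17, 28232754 to 28301469), a fatty acid receptor gene, had 1, 1, 2 and 4 loops, and a 75 to 80 kb loop that frames the gene, from about 28230001 to 28305001, was matched in all 4 lists. The knockout had 3 Ppard loops that no vehicle list held, to Tcp11, to Zfp523 and Def6, and from Fance to 28520001 to 28525000. Ppara (chromosome 15, 85734910 to 85806851), a regulator of fatty acid oxidation, had 1, 1, 1 and 1, none of them on the gene body itself. Pparg (chromosome 6, 115360879 to 115490404), the regulator of fat cell formation, had 0 loops in every list although it is 130 kb long, and the nearest anchor was 44.6 kb away in all 4 lists.

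The loops of the vitamin D receptor gene recurred in every list. Vdr (chromosome 15, 97854427 to 97908296) had 3, 3, 3 and 5 loops, and 3 of them were matched in all 4 lists. They fan out from the gene end at 97845001 to 97860000: a 135 kb loop to Endou at 97715001 to 97720000, a 65 kb loop to Slc48a1, a heme transporter gene, at 97780001 to 97785000, and a 100 kb loop across the gene to 97950001 to 97955000. Every Vdr loop of the wild-type lists was one of these. The knockout added a 45 kb loop within the gene from its promoter bin, 97905001 to 97910000, to 97860001 to 97865000, and a 475 kb loop between Pced1b and Hdac7. The xenobiotic receptors of the same branch differed: Nr1i3 (chromosome 1, 171213934 to 171218845) had 4, 2, 2 and 3 loops, with a 105 kb loop to Cfap126 matched in all 4, while Nr1i2 had 0. The Nr1i3 anchors lie on or next to Tomm40l and Apoa2, which cannot be told from Nr1i3 at this resolution.

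Among the orphan receptors related to RXR, Hnf4a (chromosome 2, 163506811 to 163572907), a regulator of liver and gut epithelium, had 3, 2, 3 and 3 loops. All of them started from 1 bin inside the gene, 163530001 to 163540000. They ran 60 kb to 163590001, over no protein-coding gene, and about 180 kb to Pkig in all 4 lists, and 290 kb to Ccn5, a matricellular protein gene, in 3, without vehicle replicate 3. Nr2c1 and Nr2c2, the testicular orphan receptor genes, had 0, 0, 0 and 1 and 1, 0, 1 and 4 loops, and Nr2e3, a regulator of photoreceptors, 1, 0, 0 and 2. The Nr2c2 promoter bin was joined with Mrps25 by a 90 kb loop in the knockout alone. A 300 kb knockout loop from the promoter to Grip2, with 25 kb anchors, was matched in both vehicle lists. A 925 kb loop from the promoter to Hdac11, also with 25 kb anchors, was in the progesterone list alone.

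Esrra (chromosome 19, 6910977 to 6922048), a regulator of mitochondrial genes, had 2, 1, 2 and 4 loops. A loop of 100 to 110 kb from its promoter bin at 6920001 to Stip1, a co-chaperone gene, was matched in all 4 lists, and one of 50 kb to Plcb3 in 3. Bins of this crowded locus also hold Catsperz. The knockout added 65 kb and 40 kb loops at 6840001 and 6910001. Esrrb (chromosome 12, 86361117 to 86521628), a factor of embryonic stem cells, had 1, 1, 2 and 1, with a 270 kb loop from Ift43 at identical bins in every list, and progesterone added one of 200 kb at 25 kb resolution. Nr6a1 (chromosome 2, 38723369 to 38926461), the germ cell nuclear factor gene, had 3, 2, 3 and 4. Its promoter bin was joined with Wdr38 by a 70 kb loop, and a 65 kb loop lay within the gene, both at identical bins in the 4 lists. A 200 kb loop from inside the gene to Wdr38 was in 3.

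**Figure D4:**
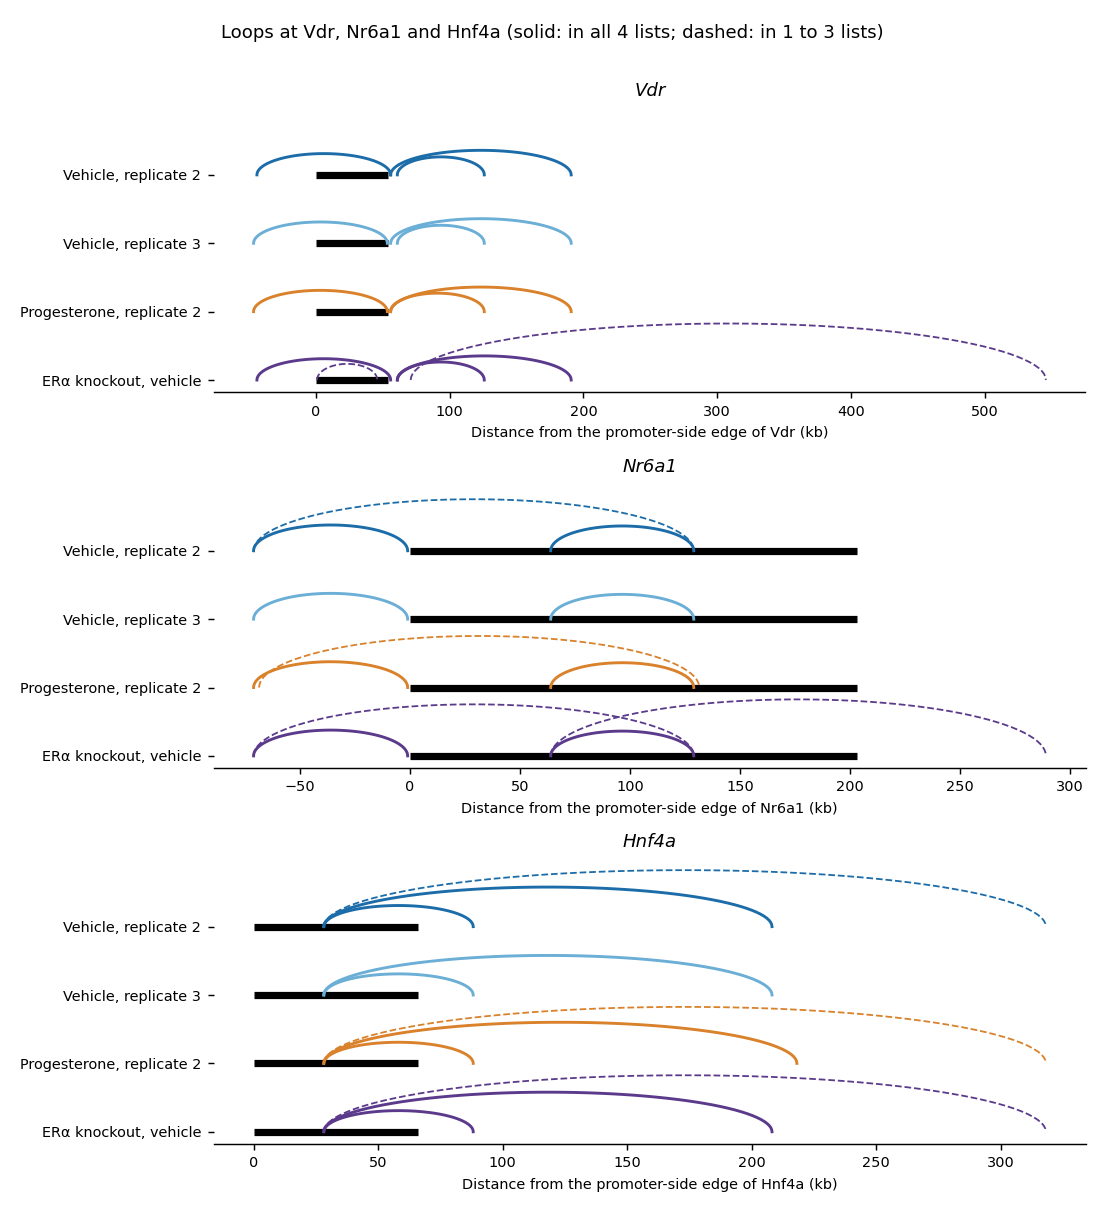
Loops at Vdr, Nr6a1 and Hnf4a as arcs over the gene (black bar) in the 4 Hi-C libraries (rows), by distance in kb from the promoter-side gene edge (x axis); solid arcs are loops found in all 4 lists. The 3 loops of Vdr, 2 of Nr6a1 and 2 of Hnf4a recur in every row.

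Loops were called at none of Nr0b1, Nr0b2, Nr1h5, Nr1i2, Nr2e1, Nr5a1, Nr5a2, Pparg, Hnf4g and Esrrg. They were not all short: 4 of them, Nr5a2, Pparg, Hnf4g and Esrrg, are in the longest length class. Esrrg, at 606 kb, is the next longest gene after Rora, and its nearest anchor in any list was 785 kb away. For Nr0b1, a repressor in adrenal and gonadal development, the nearest was 272 kb away, for Nr5a2, a receptor required for decidualisation, 87.6 kb, and for Hnf4g, a gut epithelial relative of Hnf4a, 65.2 kb, in the progesterone list alone. For Nr2e1, a neural progenitor factor, it was 37.0 kb, for Nr1i2, a xenobiotic receptor, 43.3 kb, for Nr0b2, a repressor of bile acid synthesis, 33.3 kb, for Nr1h5 25.7 kb and for Nr5a1, the regulator of steroid synthesis, 17.7 kb. Some of these genes lay inside larger loops: Nr2e1 was enclosed by 3, 2, 3 and 5 loops and Nr5a2 by 4, 1, 2 and 5, while Esrrg and Hnf4g were enclosed by none.

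The far ends of the loops most often lay over another gene. Of the pairs of a receptor gene and a loop, the far anchor overlapped another protein-coding gene in 54.2%, 50.0%, 50.0% and 53.8%, against 59.2%, 58.9%, 59.0% and 63.7% over all genes. Both anchors lay on the extended receptor gene in 15.3%, 15.8%, 18.0% and 20.0%, against 8.62%, 7.79%, 8.43% and 9.51% over all genes and 12.8%, 11.7%, 13.4% and 15.0% when all genes were weighted to the length classes of the receptor pairs. Rora gave 7 of the 16 such knockout loops. The far anchor overlapped no gene in 26.2% to 34.2%, against 26.8% to 33.3%. Median lengths were 200, 135, 200 and 130 kb, against 185, 200, 190 and 150 kb for the whole lists.

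Other genes of the same pathways were read by the same rule. The 16 remaining nuclear receptor genes, among them the steroid receptors, the retinoic acid receptors, Nr2f and Nr4a genes, were at loops in 16, 14, 16 and 16 cases, with a median of 3, 1, 2 and 4.5 loops. Nr2f2, a stromal receptor gene, had 13, 7, 6 and 19, and Nr2f1 had 1, 0, 2 and 2. Of 11 coregulator genes 10, 9, 10 and 11 were at loops. Nrip1, a corepressor gene, had 7, 3, 4 and 8, and Med1 had 0, 0, 0 and 1. Of 15 clock genes 12, 11, 11 and 14 were, and Per1 was at none. The median gene length was 49.7 kb for the 33 receptors, 44.3 kb for the other receptors, 133 kb for the coregulators and 30.4 kb for the clock genes. Over all protein-coding genes 57.5%, 45.3%, 50.0% and 65.1% were at loops. For genes of 24.9 to 57.8 kb the shares were 66.9%, 51.7%, 57.5% and 76.4%, and for longer genes 79.8%, 68.9%, 74.2% and 84.6%. No background was weighted to the lengths of these 3 gene lists, and the difference between the lists was not tested.

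The progesterone comparison asks which loops differ 1 h after the hormone. A loop counted as found in another list when both of its anchors, widened by 10 kb on either side, met those of a loop there. Of the 57 receptor loops of vehicle replicate 2, 27 were matched in all 4 lists (47.4%, 34.0 to 61.0, against 39.0% of all its loops), at 16 receptor genes (48.5%, against 33.8% of all genes and 42.5% weighted by length), and 32 in vehicle replicate 3. Of those 32, 5 were not called after progesterone (15.6%, 5.28 to 32.8), against 15.1% of all loops in both vehicle lists. The 5 are the loops described at Rora, Rorb, Rxra, Thrb and the shared one at Thra and Nr1d1, so 6 receptor genes were touched (18.2%, against 9.64% of all genes and 12.4% of genes weighted by length). In the other direction, of 49 progesterone loops 9 had no match in a vehicle list (18.4%, 8.76 to 32.0, against 14.8%). They touched 9 genes (27.3%, 13.3 to 45.5, against 12.7% of all genes and 16.2% weighted by length): Rxra at 2 loops and Thrb, Nr1d1, Thra, Esrrb, Nr1d2, Nr2c2, Ppard and Rora at 1. Thra and Nr1d1 share a loop there too.

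By the same measure within the vehicle group, vehicle replicate 3 lacked 11 of the 38 receptor loops in both vehicle replicate 2 and progesterone (28.9%, against 28.2% of all such loops). Vehicle replicate 2 lacked 0 of the 29 in vehicle replicate 3 and progesterone, against 5.99% of all such loops. Without vehicle replicate 3 the count of 5 of 32 (15.6%) became 19 of 57 (33.3%), and without vehicle replicate 2 the count of 9 of 49 became 20 of the same 49. Read as loops found, the progesterone list held 66.7% of the receptor loops of vehicle replicate 2, against 58.2% of all loops of that replicate. Vehicle replicate 3 held 59.2% of the progesterone receptor loops, against 62.6% of all progesterone loops. Of the 9 progesterone loops 5 had 25 kb anchors, and with 25 kb allowed in the match the counts of 5 and 9 became 2 and 5.

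The knockout comparison asks which loops differ without ERα, and shares its vehicle libraries with the one above. Of the 32 receptor loops shared by the vehicle libraries, the knockout lacked 2 (6.25%, 0.766 to 20.8, against 10.0%). They are the 500 kb Thrb loop and the 1370 kb Rorb loop, at 6.06% of the receptor genes against 6.47% of all genes and 8.59% weighted by length. Among the vehicle libraries, read the same way, replicate 2 lacked 1 of 32 (3.12%, against 7.95% of all such loops) and replicate 3 lacked 15 of 45 (33.3%, against 40.4%). Without vehicle replicate 3 the count of 2 of 32 (6.25%) became 12 of 57 (21.1%). Read as loops found, the knockout list held 78.9% of the receptor loops of vehicle replicate 2, against 74.3% of all loops of that replicate. In the knockout, 31 of 79 loops had no match in a vehicle list (39.2%, 28.4 to 50.9, against 40.6%), at 16 genes (48.5%, 30.8 to 66.5, against 44.2% of all genes and 51.9% weighted by length). Rora had 7, Thrb and Ppard 3 each, and Esrra, Nr1h3, Nr2c2, Rorb and Vdr 2 each. These 31 loops had a median length of 100 kb and 19 of them had 5 kb anchors, the finest. The knockout list is the longest and 64.8% of all its loops have 5 kb anchors, against 42.1% to 58.7% in the other lists; the part of this in the count was not tested. Without vehicle replicate 2 the count of 31 of 79 became 47 of the same 79. Vehicle replicate 3 held 40.5% of the knockout receptor loops, against 36.7% of all knockout loops.

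**Figure D5:**
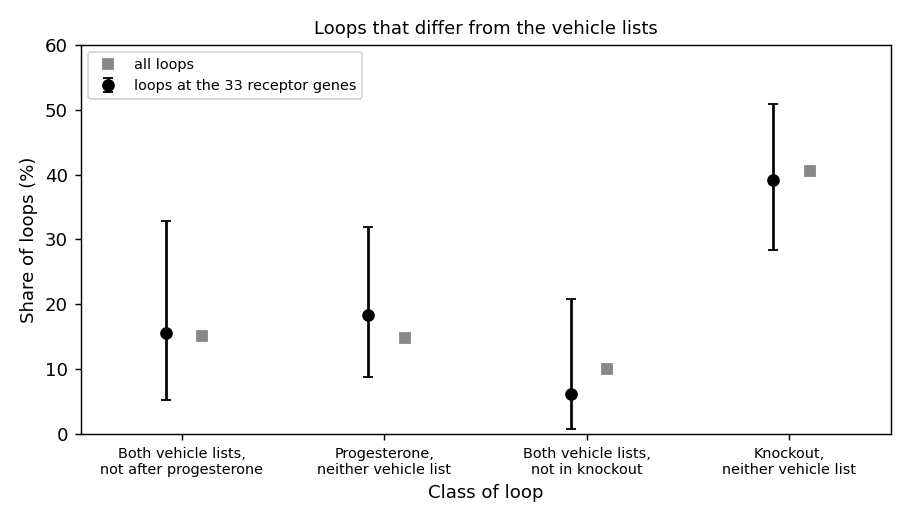
Share of loops (y axis, percent) in 4 classes that differ from the vehicle lists (x axis); circles are loops at the 33 receptor genes with exact 95% intervals, squares all loops. The receptor values of 15.6%, 18.4%, 6.25% and 39.2% have intervals that hold the values of all loops, 15.1%, 14.8%, 10.0% and 40.6%.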

How the data were processed

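Loop lists of 4 Hi-C libraries (Arima kit) were used. The authors deposited for each library the positions of both anchors of every loop, with no header and no other measure (unit: other, positions in bases); per the submitters' processing notes the build is mm10 and Juicer 1.5.6 was used. No source used here names the loop caller or its thresholds. Starts count from 0 in the lists and were written from 1.

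The 33 genes and the lists were chosen with earlier results of these data known. Gene bodies came from RefSeq (GRCm38.p6, 21631 protein-coding genes) and promoters from the RefSeq promoter table. A loop was assigned to a gene when an anchor overlapped the gene body extended by 10 kb. Loops were matched with the anchors of the loop looked for widened by 10 kb on either side. Shares carry exact (Clopper-Pearson) 95% intervals. Genes were described with loop positions when they were among the 10 with the most loops in all 4 libraries or among the 5 with the most loops of a differing class; the rest are given by their counts, except that loops of Rxrg, Rxrb, Nr1d2, Nr1h4 and Nr2c2 were described after their values were seen. Backgrounds are shares of all genes, also weighted over 5 classes of gene length or of gene density. The overlap and matching steps were tested on simulated data. Depth per library is unknown, since no contact counts were used here. Python 3.11.15, numpy 2.4.6, scipy 1.17.1 and matplotlib 3.10.9 were used.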

Additional observations from a re-analysis of the deposited data

How the results depend on the processing

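Of 72 alternative values for 13 counts, 46 were within 1.5 times the reported count. With the gene start or end itself in an anchor, genes at loops became 12 in vehicle replicate 2, 7 in vehicle replicate 3 and 12 after progesterone, and loops became 20, 10, 16 and 33 in the 4 lists. Loops in all 4 lists then became 10, and the progesterone and knockout counts of 5, 9, 2 and 31 became 2, 2, 0 and 15. The counts of 5 and 2 then rest on 12 vehicle loops in place of 32 (16.7% and 0%, in place of 15.6% and 6.25%). With anchors widened by 0 kb, loops in all 4 lists became 9 and the counts of 5, 9 and 2 became 10, 17 and 7. At 25 kb these counts became 2, 5 and 1, and with anchors of 5 or 10 kb only 3, 5 and 1. The vehicle loops behind the counts of 5 and 2 were then 22, 33 and 26. The shares not called after progesterone were 45.5%, 6.06% and 11.5%, and those not called in the knockout 31.8%, 3.03% and 3.85%. No share over all loops is given at these settings.

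Without vehicle replicate 2 or without vehicle replicate 3, loops in every remaining list numbered 28 and 35, where 27 were in all 4 lists. Fewer lists had to match in that setting. The count of 5 ranged from 6 to 19, that of 9 from 10 to 20, that of 2 from 3 to 12 and that of 31 from 33 to 47. The counts of 5 and 2 then rest on 35 or 57 vehicle loops in place of 32. Background shares weighted by length and density classes together, were 67.0%, 55.0%, 59.9% and 75.0%; these, the linking of all loops, and the length weights for genes at differing loops, for genes at loops in every or no list and for loops with both anchors on the gene, were chosen after seeing the data. No paired analysis was possible because the groups share fewer than 2 replicate numbers. Depth is unknown, so a loop that was not called cannot be read as absent.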
